A study of Mus musculus with 6 samples.

Results

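The primary granule protein genes are 8 mouse genes for azurophil granule enzymes and promyelocyte proteins: Mpo, Elane, Prtn3, Ctsg, Prss57, Ms4a3, Cst7 and Nkg7. They were taken by symbol from a table of 49585 genes, all 8 were found, and all 8 were among the 13744 genes left by a filter on low counts. The libraries came from mouse bone marrow leukaemia cells labelled MA9, a common short name for leukaemia driven by the MLL-AF9 fusion. The Gata2 KO group (3 libraries, genotype Gata2 -/-, described as Cre) was set against the Gata2 f/f group (3 libraries, loxP-flanked alleles, described as f-f). All 6 cultures had been kept in medium with IL-3, IL-6 at 10 ng/mL and SCF at 20 ng/mL and had received 5 uM Nutlin for 18 hours, so neither group was free of the drug. Nutlin blocks the binding of MDM2 to p53. Cre and the loss of Gata2 go together by label and cannot be told apart, and the labels do not say whether the 3 samples of a genotype were separate leukaemias.

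Primary (azurophil) granules are formed at the promyelocyte stage, when a granulocyte-monocyte progenitor commits to the neutrophil path. They hold myeloperoxidase, which makes hypochlorous acid from hydrogen peroxide and chloride, and serine proteases of the neutrophil elastase group. The genes are switched on early and switched off again as neutrophils or monocytes mature, and C/EBP, PU.1, RUNX and MYB factors are known to act at several of their promoters.

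In a window of 300 bases at the RefSeq transcription start (250 before it and 50 after it, GRCm38.p6), 7 of the 8 genes had an entry. The windows of Elane and Prtn3 are shown because their transcripts kept a similar ratio in all 6 libraries. That of Mpo is shown because its transcript did not keep such a ratio to them. The window of Ctsg, whose ratio to Elane ran from 0.654 to 1.355, is given beside them. Those of Ms4a3, Cst7 and Nkg7 are not shown. Whether motifs bear on these ratios was not tested. Capitals mark matches, on either strand, to any of 5 short motifs: GAGGAA for ETS factors such as PU.1, TTGCNNAA for C/EBP, TGTGGT for RUNX, TAACNG for MYB and AGATAA for GATA factors.
Elane promoter window, chr10:79886062-79886361, plus strand: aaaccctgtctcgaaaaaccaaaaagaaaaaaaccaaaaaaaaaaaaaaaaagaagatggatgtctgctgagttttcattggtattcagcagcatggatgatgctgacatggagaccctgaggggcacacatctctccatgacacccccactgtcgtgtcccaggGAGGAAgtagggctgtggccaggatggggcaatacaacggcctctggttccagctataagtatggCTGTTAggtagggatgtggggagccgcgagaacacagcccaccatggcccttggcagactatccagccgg
Prtn3 promoter window, chr10:79879417-79879716, plus strand: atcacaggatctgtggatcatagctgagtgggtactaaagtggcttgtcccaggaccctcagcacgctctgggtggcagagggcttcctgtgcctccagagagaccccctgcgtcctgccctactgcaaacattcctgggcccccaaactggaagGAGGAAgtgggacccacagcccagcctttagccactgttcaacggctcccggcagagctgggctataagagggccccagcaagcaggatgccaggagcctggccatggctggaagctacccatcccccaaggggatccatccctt
Ctsg promoter window, chr14:56102525-56102824, minus strand: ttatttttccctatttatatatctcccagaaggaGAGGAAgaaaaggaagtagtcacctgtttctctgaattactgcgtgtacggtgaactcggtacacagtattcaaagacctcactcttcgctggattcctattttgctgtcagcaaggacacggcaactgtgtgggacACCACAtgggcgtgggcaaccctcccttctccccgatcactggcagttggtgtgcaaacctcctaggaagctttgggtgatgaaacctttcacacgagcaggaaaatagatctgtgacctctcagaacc
Mpo promoter window, chr11:87793534-87793833, plus strand: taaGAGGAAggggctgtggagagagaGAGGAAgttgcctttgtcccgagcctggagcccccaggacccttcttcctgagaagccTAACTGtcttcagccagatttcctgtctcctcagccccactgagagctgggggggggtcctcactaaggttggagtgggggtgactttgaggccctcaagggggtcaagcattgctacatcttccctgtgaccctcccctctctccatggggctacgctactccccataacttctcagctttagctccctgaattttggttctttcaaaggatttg

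GAGGAA was found in 5 of the 7 windows, those of Mpo, Elane, Prtn3, Ctsg and Ms4a3, against 28.3% of all 32851 promoter windows. In Elane and Prtn3 it lay at nearly the same place, from position -85 and from position -95, and Mpo held it at positions -247 and -224. TGTGGT was in 3 windows (Ctsg, Cst7 and Nkg7; 16.8% of all windows), TTGCNNAA in 2 (Ms4a3 and Cst7; 10.8%) and TAACNG in 2 (Mpo and Elane; 23.3%). AGATAA was in 0 of the 7, against 11.2% of all windows, which says only that these letters are not there. No match overlapped another.

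Libraries held 17138687 to 26440960 counts, and reads of the 8 genes made up 0.873%, 0.583% and 0.466% of them in Gata2 KO 1, 2 and 3, against 0.522%, 0.800% and 0.374% in Gata2 f/f 1, 2 and 3. Gata2 itself, the deleted gene, had 5.44, 43.3 and 4.33 CPM in the KO libraries, against 33.6, 22.3 and 18.4 CPM in f/f (CPM is the count scaled by the TMM-adjusted library size to a common total). The library labelled Gata2 KO 2 thus goes against its label at the deleted gene, and it is part of each KO mean given here. Of the MLL fusion leukaemia and leukocyte markers, Hoxa9 was at 197 to 231 CPM in Gata2 KO and 168 to 178 CPM in Gata2 f/f. It was the sole gene of that list with ranges that did not overlap, as in 5.42% of all genes tested, and was not called. Kit, a receptor of immature cells, was at 59.7, 58.0 and 1.34 CPM in Gata2 KO and 88.7, 78.1 and 28.5 CPM in Gata2 f/f, so it was near 0 in Gata2 KO 3. Libraries also differed by their number, with 1249 of 13744 genes called between numbers (edgeR, adjusted p under 0.05). In bulk RNA, fewer cells with a transcript and less transcript per cell cannot be told apart.

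Levels of different genes were set side by side per kilobase of merged annotated exons. That length can exceed the length of the transcript in use, which would lower the value, so the order is rough. Elane and Ctsg lay at 1801 and 1692 CPM per kb over the 6 libraries, ranks 7 and 8 of 12058 protein-coding genes tested. Prtn3 followed at 766 CPM per kb (rank 44), Ms4a3 at 382 (rank 118), Mpo at 94.6 (rank 557), Cst7 at 50.7 (rank 1117), Nkg7 at 14.4 (rank 3425) and Prss57 at 12.5 (rank 3815). The ranges of Elane (1326 to 2532 CPM per kb) and Ctsg (886 to 2389) overlapped widely, as did those of Nkg7 (3.17 to 23.6) and Prss57 (5.01 to 20.98). Mpo ran from 8.17 to 278 CPM per kb and so reached from below Cst7 (36.7 to 77.1) to the lower end of Ms4a3 (247 to 532).

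No granule gene passed the test between Gata2 KO and Gata2 f/f. The test was edgeR's quasi-likelihood test over 13744 genes, which called 0 of the 8 and 0% of all genes (adjusted p = 1.00 for each of the 8). At an unadjusted p under 0.05 it counted 0 of the 8 and 171 of all genes (1.24%). DESeq2 called 7 genes (0.0513% of those with an adjusted p) and none of the 8. The KO and f/f ranges overlapped for every one of the 8, while 745 of 13744 genes (5.42%) had ranges that did not overlap. The log2 fold change, Gata2 KO over Gata2 f/f, was positive for 7 of the 8 with a median of 0.27, beside 52.5% of all genes and a median of 0.02.

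**Figure D1:**
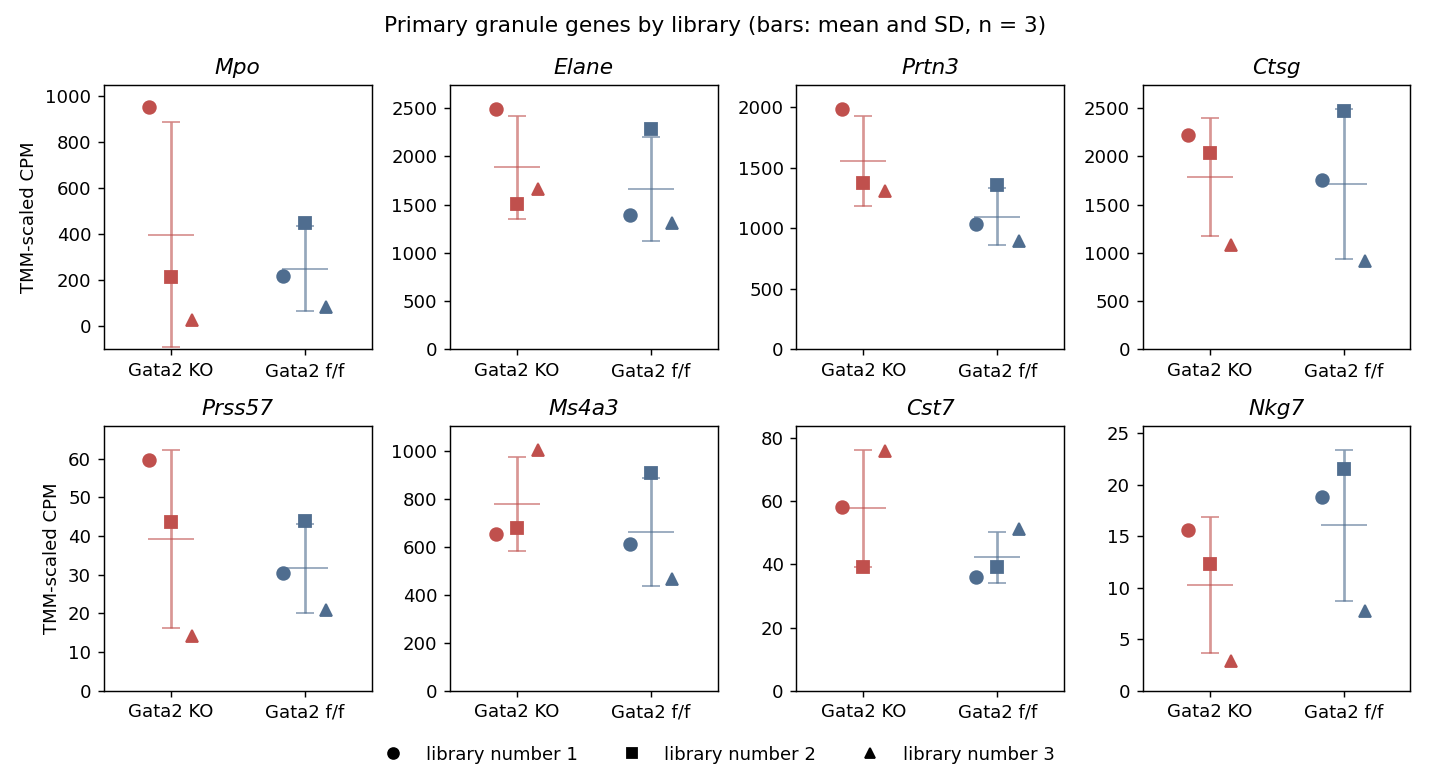
TMM-scaled CPM (vertical axis) of the 8 genes in each library, Gata2 KO on the left and Gata2 f/f on the right of each panel; symbols give the library number, and the bars the mean and SD of 3 libraries. The groups overlap in all 8 panels, and Mpo spans 28.0 to 952 CPM within Gata2 KO alone.

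Mpo, the gene of the heme enzyme myeloperoxidase (ENSMUSG00000009350.13, GRCm38 chromosome 11, 87793581 to 87804413, plus strand, 15 merged exons), varied most among the 8. It was at 952, 212 and 28.0 CPM in Gata2 KO 1, 2 and 3, against 220, 446 and 84.9 CPM in f/f 1, 2 and 3. Both the highest and the lowest of the 6 libraries belonged to Gata2 KO, a 34.0-fold span that enclosed all f/f values. The counts behind the extremes were 19940 and 666, so counting error is small beside this span. The means were 398 ± 489 CPM in Gata2 KO and 250 ± 183 CPM in Gata2 f/f (SD, n = 3 each), and the fitted log2 fold change was 0.67 ± 1.11 (SE). With the replicate number as a block the sign turned, to -0.29 ± 0.73 (edgeR, adjusted p = 0.897). Without the library labelled KO 2 the blocked value was 0.27, from a fit in which f/f 2 has no partner and does not bear on the difference. Paired by number, KO minus f/f, the log2 difference came to 2.11, -1.07 and -1.60 in pairs 1, 2 and 3. Leaving out Gata2 KO 1, the library with most Mpo, gave a log2 fold change of -1.08, and leaving out Gata2 f/f 2 gave 1.39.

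Elane and Prtn3 encode neutrophil elastase and proteinase 3, closely related serine proteases, and lie 3073 bp apart on the plus strand of chromosome 10. Elane (ENSMUSG00000020125.6, 79886247 to 79888215) was at 2491, 1504 and 1659 CPM in Gata2 KO and at 1392, 2280 and 1305 CPM in Gata2 f/f. The highest value was that of KO 1 and the lowest that of f/f 3, and the groups overlapped through f/f 2. The means were 1885 ± 531 CPM in KO and 1659 ± 540 CPM in f/f, and the log2 fold change was 0.18 ± 0.33. Prtn3 (ENSMUSG00000057729.12, 79874476 to 79883174) was at 1983, 1374 and 1310 CPM in Gata2 KO and at 1035, 1359 and 894 CPM in Gata2 f/f. Only f/f 2 reached into the KO range, above KO 3 and just under the library labelled KO 2. Its log2 fold change was 0.51 ± 0.29. By edgeR's unadjusted p it came first among the granule genes and at rank 650 of 13744 genes tested. Within numbers 1, 2 and 3 the log2 difference of Prtn3 was 0.94, 0.02 and 0.55, so it was near 0 in the pair that holds the library labelled KO 2. Over the libraries left out in turn it stayed positive, from 0.27 to 0.69. The exons of Prtn3 share 159 bp with those of Plppr3 on the other strand, and the counts do not state whether strand was used.

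Ctsg, the gene of cathepsin G, a chymotrypsin-like granule protease (ENSMUSG00000040314.1, chromosome 14, 56099881 to 56102574, minus strand), was at 2223, 2037 and 1086 CPM in Gata2 KO and at 1756, 2468 and 915 CPM in Gata2 f/f. In each genotype the library numbered 3 was the lowest, at about the same level in both. The means were 1782 ± 610 CPM in Gata2 KO and 1713 ± 777 CPM in Gata2 f/f, a log2 fold change of 0.06 ± 0.43. Prss57, which encodes neutrophil serine protease 4 (ENSMUSG00000020323.14, chromosome 10, 79781474 to 79790961, minus strand), was at 59.6, 43.6 and 14.2 CPM in Gata2 KO and at 30.4, 43.8 and 20.9 CPM in Gata2 f/f. As with Ctsg, each library numbered 3 was the lowest of its genotype. Its log2 fold change was 0.31 ± 0.52, and within numbers 1, 2 and 3 it was 0.97, -0.0050 and -0.55. The annotated exons of Prss57 share 1157 bp with Fstl3 on the opposite strand, a gene with at most 51 counts in any library.

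Ms4a3, a membrane protein gene known as a marker of granulocyte-monocyte progenitors (ENSMUSG00000024681.11, chromosome 19, 11629496 to 11640851, minus strand), was not low in both libraries numbered 3. It was at 652, 680 and 1003 CPM in Gata2 KO and at 612, 909 and 465 CPM in Gata2 f/f. Gata2 KO 3 was the highest of the 6 libraries and Gata2 f/f 3 the lowest, a log2 difference of 1.11 between libraries of number 3 that was 0.09 for number 1 and -0.42 for number 2. The overall log2 fold change was 0.23 ± 0.33.

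Cst7 encodes cystatin F, an inhibitor of lysosomal cysteine proteases that include cathepsin C, the enzyme that activates the granule serine proteases. Cst7 (ENSMUSG00000068129.5, chromosome 2, 150570415 to 150578944, plus strand) was at 58.1, 39.2 and 76.0 CPM in Gata2 KO and at 36.2, 39.2 and 51.4 CPM in Gata2 f/f. Each library numbered 3 was the highest of its genotype, the reverse of Ctsg and Prss57. The means were 57.8 ± 18.4 and 42.2 ± 8.07 CPM in KO and f/f, a log2 fold change of 0.45 ± 0.30, which stayed positive over the libraries left out in turn, from 0.18 to 0.66.

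Nkg7, a granule membrane protein gene also used by natural killer and cytotoxic T cells (ENSMUSG00000004612.9, chromosome 7, 43437073 to 43438249, plus strand), was the only one of the 8 with a negative log2 fold change. It was at 15.6, 12.3 and 2.90 CPM in Gata2 KO and at 18.8, 21.6 and 7.77 CPM in Gata2 f/f, from 69 to 484 counts. Within each number the KO library was the lower, by a log2 difference of -0.27, -0.80 and -1.39 for numbers 1, 2 and 3, although the groups overlapped through f/f 3. The log2 fold change was -0.65 ± 0.64 without the block and -0.82 ± 0.27 with it (edgeR, unadjusted p = 0.0220, adjusted p = 0.426). With the block edgeR again called 0% of all genes. An unadjusted p under 0.05 was reached by 1473 of 13744 genes and by 1 of the 8, Nkg7. DESeq2 with the block called 222 of 12678 genes (1.75%) and none of the 8; for Nkg7 it gave an adjusted p = 0.201. Of the natural killer and cytotoxic T cell markers, 4 of 18 passed the filter, and Ncr1 and Klrb1c were at 0 in all 6 libraries. The 18 summed to 2.87 to 16.5 CPM in Gata2 KO and 3.39 to 10.9 CPM in Gata2 f/f, and were highest in KO 3, where Nkg7 was lowest.

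**Figure D2:**
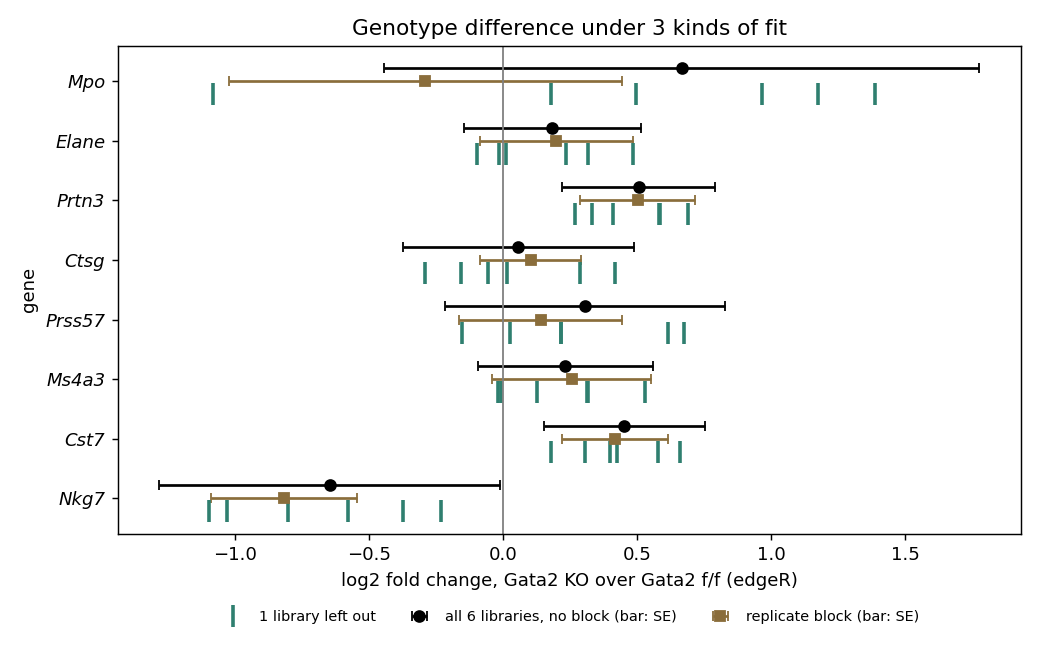
Log2 fold change of each gene, Gata2 KO over Gata2 f/f (horizontal axis), from edgeR on all 6 libraries without a block (circles, SE), with the replicate block (squares, SE) and with 1 library left out (ticks). Prtn3 and Cst7 stay above 0 and Nkg7 below 0 in every fit shown, while Mpo runs from -1.08 to 1.39.

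The sign of most of the 8 depended on single libraries. Without Gata2 KO 1 only 3 of the 8 were positive (median -0.12), and without Gata2 f/f 3 it was 4 of the 8 (median 0.0090). Without the library labelled Gata2 KO 2 it was 6 of the 8 (median 0.31). With the block as well it was 7 of the 8 (median 0.44), with Elane at 0.59 and Ms4a3 at 0.60, beside 50% of all genes. In that blocked fit Gata2 f/f 2 has no partner of its number and no longer bears on the genotype difference. The rise thus cannot be credited to leaving out KO 2 alone. With the replicate block 6 of the 8 were positive (median 0.17), Mpo and Nkg7 being negative. None of the 8 was called in any of these fits.

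Between library numbers, with genotype in the model, edgeR called Ctsg (adjusted p = 0.0499) and Nkg7 (0.0404), 2 of the 8, beside 9.09% of all genes. The mean of the KO and f/f libraries of numbers 1, 2 and 3 was 1989, 2252 and 1000 CPM for Ctsg, and 17.2, 16.95 and 5.33 CPM for Nkg7. Mpo, at 586, 329 and 56.5 CPM, and Prss57, at 45.0, 43.7 and 17.6 CPM, were laid out alike but were not called (adjusted p = 0.106 and 0.103). Elane, Prtn3, Ms4a3 and Cst7 were not called either (adjusted p = 0.202 to 0.733). The count was 1 of the 8 with upper-quartile scaling, beside 1556 of 13744 genes. It was 1 of the 8 with a filter on mean CPM, beside 1281 of 12513 genes. Without a filter it was 3 of the 8, beside 2348 of 24057 genes. What the numbers mark is not given.

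**Figure D3:**
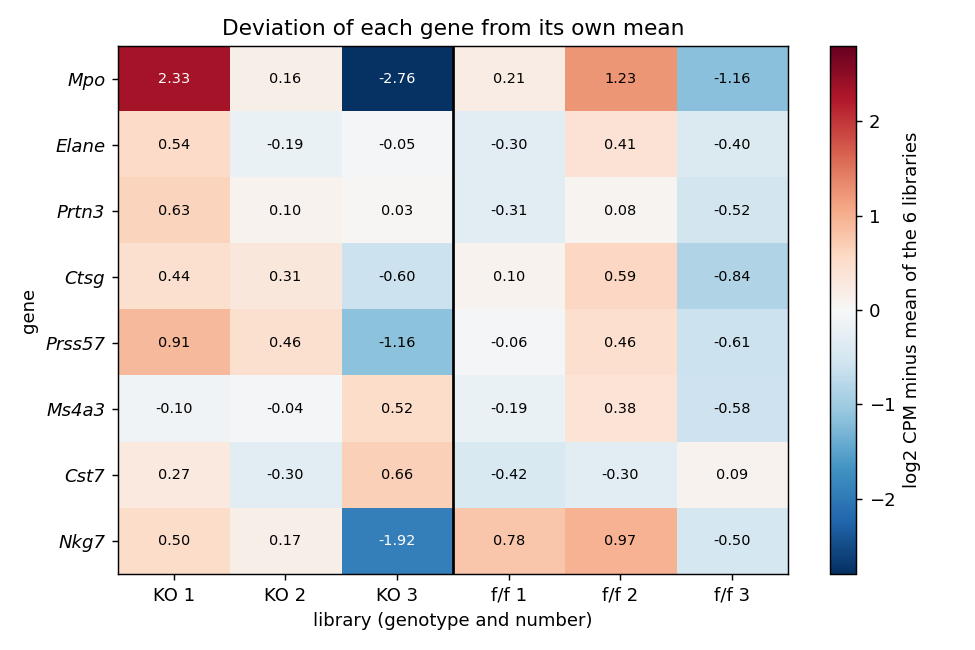
Log2 CPM of each gene (rows) in each library (columns; Gata2 KO left, Gata2 f/f right) minus the gene's mean over the 6 libraries. The columns numbered 3 are low for Mpo (-2.76 and -1.16), Ctsg, Prss57 and Nkg7, and high for Cst7 (0.66 and 0.09).

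Ratios between transcripts within a library do not depend on its scaling. Prtn3 over Elane was 0.796, 0.914 and 0.790 in Gata2 KO 1, 2 and 3 and 0.743, 0.596 and 0.685 in Gata2 f/f 1, 2 and 3. The neighbouring genes thus kept a ratio that was higher in every library labelled KO than in any f/f library, though the lowest KO and highest f/f values lay close together. The highest ratio was that of the library labelled KO 2, which had the most Gata2 of the 6 (43.3 CPM). That layout was noticed in the data and was not tested. The other ratios taken, those of Elane, Prtn3, Ctsg and Ms4a3 to Mpo and of Ctsg to Elane, overlapped between the genotypes. How often ratios of other gene pairs lie apart was not counted. Elane over Mpo, by contrast, was 2.62, 7.08 and 59.3 in Gata2 KO and 6.33, 5.11 and 15.4 in Gata2 f/f. In Gata2 KO 3 the elastase transcript was thus within the range of the other libraries while that of myeloperoxidase was at its lowest.

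**Figure D4:**
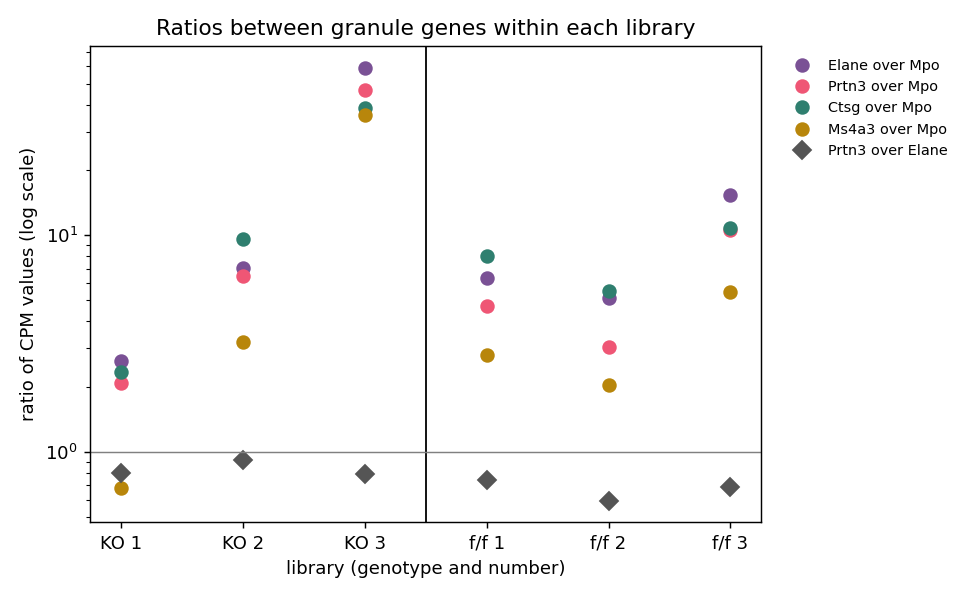
Ratio of CPM values (log scale) within each library, Gata2 KO left and Gata2 f/f right of the line. The ratios of Elane, Prtn3, Ctsg and Ms4a3 to Mpo are highest in Gata2 KO 3 (35.8 to 59.3), while Prtn3 over Elane stays between 0.596 and 0.914 in all 6 libraries.

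Around the protease genes of chromosome 10, edgeR called no difference for other expressed genes, as it called none anywhere. Within 100 kb of Elane, Prtn3 or Prss57, Ptbp1, a splicing regulator, was at 633, 505 and 252 CPM in Gata2 KO and 481, 469 and 405 CPM in Gata2 f/f. Plppr3, the gene that overlaps Prtn3, was at 162, 97.2 and 105 CPM in Gata2 KO and 104, 84.8 and 83.5 CPM in Gata2 f/f (log2 fold change 0.42 ± 0.26). Tmem259 (109 to 134 CPM in Gata2 KO, 84.5 to 107 in Gata2 f/f) and Cdc34, a ubiquitin-conjugating enzyme gene (198 to 343 and 159 to 193 CPM), had ranges that did not overlap, and neither was called. Over all genes tested, 5.42% had such ranges, and further expressed neighbours, with ranges that overlapped, are not named here. Near Ctsg, Mcpt8, a basophil protease gene, was the sole neighbour of at least 5 CPM in the higher group, at 4.11 to 6.35 CPM in Gata2 KO and 1.63 to 10.6 CPM in Gata2 f/f. Cd33, 85967 bp from Nkg7 and a sialic acid receptor gene of myeloid cells, was at 332, 256 and 483 CPM in Gata2 KO and 200, 169 and 688 CPM in Gata2 f/f. It was high in both libraries numbered 3, the reverse of Nkg7. Apmap, beside Cst7, stayed between 74.1 and 87.1 CPM in all 6 libraries.

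Few Prss and granzyme relatives of the 8 genes were expressed. Of 39 annotated Prss genes, 4 passed the filter and 2 had at least 5 CPM in the higher group, Prss57 and the thymus-type protease gene Prss16 (14.9 to 32.1 CPM in Gata2 KO, 19.4 to 21.9 CPM in Gata2 f/f). Of 10 granzyme genes 2 passed and none reached 5 CPM. Of 19 Ms4a genes, in contrast, 10 passed and 5 had at least 5 CPM in the higher group, Ms4a3 among them. Ms4a6d, a macrophage gene near Ms4a3, was at 28.7, 10.9 and 154 CPM in Gata2 KO and 4.51, 5.08 and 98.4 CPM in Gata2 f/f. Among the cystatins, Cst3 was at 295, 296 and 846 CPM in Gata2 KO and 204, 252 and 526 CPM in Gata2 f/f, and Cstb at 94.6, 116 and 274 CPM against 56.5, 76.9 and 238 CPM, both highest in number 3 of each genotype like Cst7.

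By edgeR, genes that process, fold or restrain the granule proteins were not called either. Of 19 tested genes of protease activation and packaging, 0 were called and 16 had positive values (median 0.23), led by Stxbp2, a regulator of granule exocytosis (log2 fold change 0.67 ± 0.31), Stx11 (0.96 ± 0.55) and Vamp8 (0.51 ± 0.36), its membrane fusion partners. DESeq2 with the block called 1 of the 19, Stx11, upward (adjusted p = 0.0324). Ctsc, the activating protease cathepsin C, was chosen for its role with its values known. It was at 260, 162 and 870 CPM in Gata2 KO and 118, 130 and 859 CPM in Gata2 f/f, so it was high in both libraries numbered 3, in which Ctsg was low. Of 12 heme synthesis and Mpo folding genes, 0 were called and 6 were positive (median -0.01). Alas1, the rate-limiting enzyme of heme synthesis, was at 574, 279 and 871 CPM in Gata2 KO and 252, 251 and 621 CPM in Gata2 f/f. It was highest in both libraries numbered 3, those with least Mpo, and next in KO 1, the library with most Mpo. Ppox (0.42 ± 0.29) and Cpox (-0.40 ± 0.37), later enzymes of that path, were the other leading members.

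Of 16 tested inhibitors of granule proteases, 0 were called and 9 were positive (median 0.15). Slpi, the secretory leukocyte protease inhibitor that binds elastase and cathepsin G, was chosen after its values were seen: it was at 136, 138 and 942 CPM in Gata2 KO and 483, 294 and 1295 CPM in Gata2 f/f, with KO the lower in all 3 pairs by number. Its log2 fold change was -0.77 ± 0.89 without the block, and DESeq2's blocked fit called it downward (adjusted p = 0.00351). The leading members by p were Stfa1, a stefin (0.81 ± 0.48), Wfdc17 (1.38 ± 1.04; called upward by DESeq2 with the block, adjusted p = 1.43e-06) and Cst3 (0.55 ± 0.54). All 12 tested lysosomal cathepsins and related proteases had positive values (median 0.79) and 0 were called. Ctsa was at 444, 334 and 1221 CPM in Gata2 KO and 217, 194 and 586 CPM in Gata2 f/f (1.00 ± 0.62), with Ctsw (1.01 ± 0.65) and Ctsk (1.29 ± 0.98) next at no more than 5.21 CPM. DESeq2 with the block called 4 of the 12, all upward, beside 1.75% of all genes. Upward calls also prevailed over all genes in that fit, 180 against 42 downward. Between numbers edgeR called 10 of the 12, beside the 9.09% of all genes.

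Of 22 tested transcription factors of granulocyte-monocyte progenitors, 0 were called and 14 were positive (median 0.22). Spi1, which encodes PU.1, was at 500, 299 and 636 CPM in Gata2 KO and 259, 220 and 352 CPM in Gata2 f/f, a log2 fold change of 0.79 ± 0.34 (edgeR, unadjusted p = 0.0499, adjusted p = 1.00). In all 3 pairs by number the KO value was the higher, and in DESeq2's blocked fit it was called upward (adjusted p = 0.0385). Cebpd (0.85 ± 0.44) and Irf4 (-0.999 ± 0.59, at most 1.55 CPM) came next. The factors best known at primary granule genes were chosen for that role with their values known. Cebpa was at 284 ± 69.5 CPM in Gata2 KO and 241 ± 45.4 CPM in Gata2 f/f, and Cebpe at 74.6 ± 9.97 and 62.0 ± 13.4 CPM. Myb was at 209, 208 and 74.6 CPM in Gata2 KO and 272, 247 and 125 CPM in Gata2 f/f, and Gfi1 at 175, 93.2 and 66.4 CPM against 133, 120 and 57.0 CPM. Both were lowest in number 3 of each genotype, like Mpo, Ctsg, Prss57 and Nkg7. Runx1 was not, at 47.5, 23.8 and 35.1 CPM in Gata2 KO and 27.1, 21.4 and 49.5 CPM in Gata2 f/f.

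Of 28 other primary granule and promyelocyte genes, 0 were called and 21 were positive (median 0.28). Fcnb, the ficolin B gene, was at 6.30 CPM in Gata2 KO 1, the library with most Mpo, and at 0.60 to 0.88 CPM in the other KO and all f/f libraries. Dmkn (1.63 ± 0.85) and the lysosomal mannosidase gene Man2b1 (0.51 ± 0.34) followed. Lyz2, the lysozyme gene shared by granules of neutrophils and by macrophages and chosen after its values were seen, was at 1024, 715 and 4245 CPM in Gata2 KO and 218, 168 and 3053 CPM in Gata2 f/f. It was thus high in both libraries in which Mpo was lowest, and DESeq2's blocked fit called it upward (adjusted p = 0.000106).

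Markers of later and of other myeloid cells also differed between libraries. The 16 late neutrophil genes (15 tested) summed to 2140, 697 and 4143 CPM in Gata2 KO and 338, 655 and 2292 CPM in Gata2 f/f. The 16 monocyte and macrophage genes, all tested, summed to 1839, 1349 and 4627 CPM in Gata2 KO and 880, 987 and 4331 CPM in Gata2 f/f, and none of them was at 0 throughout. Both sums were highest in Gata2 KO 3, where Mpo, Prss57 and Nkg7 were lowest. The late neutrophil sum in KO 1, the library with most Mpo, was however near that in f/f 3 (2140 and 2292 CPM). Ctsg was lowest in f/f 3. The part of these marker genes in the granule gene values was not tested. By edgeR, in either fit, no gene of these lists was called. In the blocked DESeq2 fit the calls were 7 of the 15 late neutrophil genes and 2 of the 16 monocyte and macrophage genes, all upward, beside 1.75% of all genes. Of that fit's calls over all genes, 180 were upward and 42 downward. Between numbers edgeR called 5 of the 15 and 11 of the 16, beside 9.09%. Markers of other lineages were sparse: the 14 basophil, mast cell and eosinophil genes summed to 11.4 to 77.9 CPM in Gata2 KO and 20.9 to 42.9 CPM in Gata2 f/f, the 10 erythroid genes to 4.58 to 13.8 and 3.08 to 4.59 CPM, and the 8 B cell genes to 1.86 to 5.80 and 4.78 to 6.56 CPM. Nutlin's usual targets, 16 p53-activated genes, summed to 1669 to 2696 CPM in Gata2 KO and 1340 to 2518 CPM in Gata2 f/f. The leading members there were Perp (-2.21 ± 0.83), Bax (0.45 ± 0.26) and Bbc3 (0.45 ± 0.29). By edgeR none of the 16 was called, and DESeq2 with the block called Perp downward (adjusted p = 0.00181) and Phlda3 upward (adjusted p = 0.00893).

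**Figure D5:**
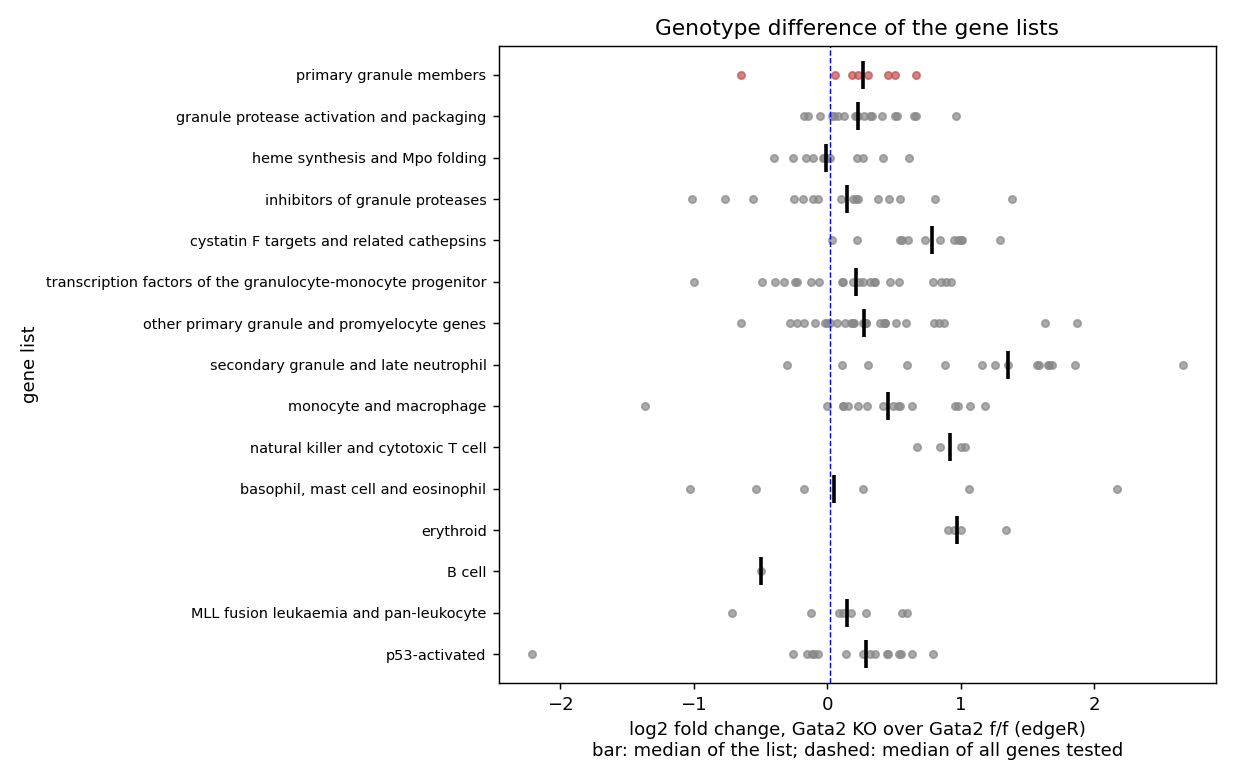
Log2 fold change, Gata2 KO over Gata2 f/f (horizontal axis, edgeR), of the tested genes of each list (points) with the list's median (bars) and the median of all genes tested (dashed, 0.02). The 8 primary granule genes have a median of 0.27, beside 0.79 for cathepsins and 1.35 for late neutrophil genes; no point was called.

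Genes whose log2 CPM most closely followed the mean of the 8, or single genes of them, were sought among 9917 other genes of at least 5 CPM. The 8 did not share a common pattern over the 6 libraries. Pearson's r was 0.966 between Mpo and Prss57, -0.159 between Mpo and Ms4a3 and -0.822 between Cst7 and Nkg7. With the mean of the standardised values of the 8, Pearson's r was highest for Tuba8 (0.980), Piga (0.950), Elmod3 (0.936), Arsa (0.936) and Adgrg3 (0.931). For Elane alone they were Piga (0.994), Arsa (0.975) and Mogat2 (0.933), for Mpo Ctu2 (0.989), AW554918 (0.983) and Stt3b (0.983), for Ctsg Pars2 (0.995), Kat8 (0.989) and Lrrc20 (0.974), and for Ms4a3 Gm10221 (0.986), Tfg (0.982) and Thoc6 (0.981). The r values are a description over 6 libraries that share their number in pairs, the best among all candidates, and carry no test. Piga, a gene of glycosylphosphatidylinositol anchor synthesis, was at 77.2, 61.1 and 61.6 CPM in Gata2 KO and 56.6, 74.1 and 54.5 CPM in Gata2 f/f. Stt3b, a subunit of the oligosaccharyltransferase that N-glycosylates proteins, was at 463, 381 and 313 CPM in Gata2 KO and 386, 420 and 370 CPM in Gata2 f/f, a narrow span beside that of Mpo.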

How the data were processed

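RNA of 6 Nutlin-treated cultures was sequenced from poly(A)-selected libraries as paired 90 bp reads, per the labels' protocols. The authors deposited 1 table of raw counts per gene; kallisto, HTSeq, DESeq2 and mm10 are named in the submitters' processing notes without role or version, and the strand setting is not given in the sources used here. Identifiers were matched without version to GENCODE M21 (GRCm38; 49326 of 49585 rows), which gave symbols, positions and exon lengths. Levels are TMM-scaled CPM computed here.

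Genes kept by filterByExpr (minimum count 10) were tested with edgeR 4.0.16 (quasi-likelihood, robust, no block, R 4.3.3) across all genes with Benjamini-Hochberg adjusted p under 0.05 as the call; SE came from the F statistic. The p-values rest on the spread among these samples, which may be technical. Library number was tested in a model with genotype. Alternatives used DESeq2 1.42.0, limma 3.58.1, other scalings and filters, the replicate block and left-out libraries. Deviations of log2 CPM (prior count 2) from group means correlated between KO and f/f at 0.294, 0.555 and 0.653 for numbers 1, 2 and 3, which meets the criterion for pairing by number (each over 0.1); the main fit stays without the block and the blocked fit is an alternative. Unlike numbers also correlated: KO 1 reached 0.104 with f/f 2, and KO 2 0.455 with f/f 1.

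The 8 genes and all lists were chosen with earlier results of these data known. Beside the 8 and Gata2, the genes named are the 3 of smallest p per list, some neighbours within 100 kb and some family members of at least 5 CPM, and the genes of most like pattern, unless said otherwise. Promoter sequences are from RefSeq (GRCm38.p6). The scripts were tested on simulated data. Protein sequences were not used here.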

Additional observations from a re-analysis of the deposited data

How the results depend on the processing

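None of the 8 granule genes was called in the genotype comparison under any of the alternatives run, and 113 of 128 values of their log2 fold changes kept their sign; the other 15 turned. Mpo turned with limma voom (-0.18), with the replicate block (-0.29) and with DESeq2 and the block (-0.32), and over left-out libraries it ran from -1.08 to 1.39. Ctsg turned without a filter on low counts (-0.0049) and without both libraries numbered 3 (-0.024), which also turned Ms4a3 (-0.23). Over left-out libraries Elane ran from -0.10 to 0.48, Ctsg from -0.29 to 0.42, Prss57 from -0.15 to 0.68 and Ms4a3 from -0.018 to 0.53. Over all genes the count called was 7 with DESeq2 and 222 with DESeq2 and the replicate block, against 0 in the main fit of edgeR. It was 54 with the edgeR replicate block without the library labelled KO 2, where f/f 2 has no partner. The cause was not tested. Between numbers, 2348 of 24057 genes were called without a filter and 1249 of 13744 with it. Of the 8, 3 were called without a filter and 2 with the main settings. It was 1 of the 8 with upper-quartile scaling (1556 of 13744 genes) or a mean CPM of at least 1 (1281 of 12513 genes). Counts of Nkg7, from 69 per library, give it the widest counting error of the 8.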

Other observations

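The library labelled Gata2 KO 2, which had the highest Gata2 level, also stood apart in some genes of eosinophils and basophils, a pattern noticed in the data. Epx, the eosinophil peroxidase gene and a relative of Mpo, was at 8.85 CPM there, 0.0955 CPM or less in both other KO libraries and 0.456 CPM or less in all f/f libraries. Prg2, the eosinophil major basic protein gene, was at 14.5 CPM there, at most 0.191 CPM in both other KO libraries and 1.03 to 1.20 CPM in the f/f libraries. Ms4a2, the beta chain gene of the high-affinity IgE receptor and a relative of Ms4a3, was at 6.62 CPM there, 1.24 and 1.34 CPM in both other KO libraries and 1.20 to 1.83 CPM in the f/f libraries. Mcpt8, at 6.35 CPM, lay inside the f/f span, 1.63 to 10.6 CPM. Siglecf and Cpa3, also of the basophil, mast cell and eosinophil list, lay inside their f/f spans in that library too. Its Siglecf level also lay between those of both other KO libraries. The pattern thus did not hold for the whole list. None of these differences was tested between libraries.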
